A study of Saccharomyces cerevisiae with 2 samples.

Results

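The H/ACA snoRNAs snR37 (gene SNR37), snR10 (gene SNR10) and snR42 (gene SNR42) were examined in the CRAC data of Rbp95. Each of them guides the modification of a uridine in domain V of the 25S rRNA upstream of helix H95. They were singled out among the guides of domain V with their presence in these libraries already known, and they are 3 of the 36 RNAs in the deposited snoRNA lists. Of the 29 H/ACA snoRNAs of yeast that were looked up by name, 14 are in these lists. The CRAC experiment comprised 1 library from BY4741 cells that express Rbp95 with a C-terminal HTP tag (His6, TEV cleavage site and protein A) from its chromosomal locus, and 1 library from an untagged control, which the labels give as BY4741 and the methods as BY4742. Both cultures were grown to an OD of 0.6 in medium with glucose and without tryptophan, and both were irradiated with UV light for 100 s. The deposited design text names Nap1_HTP as the tagged protein, and the assignment of the tagged library therefore rests on the title of the sample. Each group has 1 library, so differences between them were not checked by replicates, and no p-values are given.

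H/ACA snoRNAs fold into a pair of hairpins, each followed by a short conserved box, of which the ACA box lies next to the 3′ end. An internal loop in a hairpin, the pseudouridylation pocket, pairs with the rRNA on both sides of a uridine, and the associated enzyme Cbf5 converts this uridine to pseudouridine. Domain V contains the peptidyl transferase center, where the ribosome forms peptide bonds, and it is rich in such modifications. Within it, snR37 guides the modification of U2944 and snR10 that of U2923, both in helix H92, while snR42 guides that of U2975 in helix H93. Yeast snR10 is in addition required for early cleavages of the pre-rRNA on the way to the 18S rRNA. In CRAC, RNA is crosslinked to the tagged protein in living cells and purified under denaturing conditions, so that reads mark RNA in contact with the protein.

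In the deposited 35S sequence all 3 guided positions hold a T, the DNA letter for uridine, as the numbering of the sites requires. The sequences are shown as DNA, 5′ to 3′, because the reads described further on begin or end at defined points of them. The guided nucleotide is in capitals, except in the last sequence, which contains none. All lie on the minus strand of chromosome XII in RDN25-1, the 25S rRNA gene within RDN37-1 of the R64 assembly, and the rDNA is repeated, so that reads of all copies are counted together.
Site of snR10, nucleotides 2903 to 2935 of the 25S rRNA (chrXII:452247-452279): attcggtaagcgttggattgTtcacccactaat
Site of snR37, nucleotides 2936 to 2970 (chrXII:452212-452246): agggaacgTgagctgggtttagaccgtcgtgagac
Site of snR42, nucleotides 2961 to 2990 (chrXII:452192-452221): gtcgtgagacaggtTagttttaccctactg
Highest peak of the Rbp95-HTP pileup, in helix H95, nucleotides 3011 to 3040 (chrXII:452142-452171): aattgaacttagtacgagaggaacagttca
The stretch shown for snR37 is the whole block of reads that covered U2944, and the sequence shown for snR42 overlaps its 3′ end. The guided nucleotides lie close together: U2923 is 21 nucleotides upstream of U2944, and U2975 is 31 nucleotides downstream of it. The first nucleotide of the peak in helix H95 is 88 nucleotides downstream of U2923, 67 downstream of U2944 and 36 downstream of U2975.

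Among these snoRNAs, snR37 was by far the most frequent in the Rbp95-HTP library. SNR37 had 674 reads per 100000 with Rbp95-HTP, against 1 in the control. SNR10, with 122 reads per 100000 in the Rbp95-HTP library, was listed at 0 in untagged cells. For SNR42 the list gave 84 reads per 100000 in the Rbp95-HTP library and likewise 0 in the control. All 3 snoRNAs were thus frequent in the Rbp95-HTP library and nearly or fully missing from the list of the control. With a limit of at least 10 reads per 100000 with Rbp95-HTP and at least 10 times the control value, 3 of 3 were called, but so were 91.7% of the listed RNAs, so passing this limit does not set them apart from the other snoRNAs. The number of reads behind these values is unknown, and they are given without an interval. The abundance of the snoRNAs in the cells was not analysed here, so that a more abundant RNA and a more frequent contact cannot be told apart.

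Together these snoRNAs had 880 reads per 100000 with Rbp95-HTP, against 1 in untagged cells. As a share of all snoRNA reads, this was 28.9% with Rbp95-HTP, against 0.0122% in untagged cells. Most of it came from snR37, which alone held 22.1% of the snoRNA reads with Rbp95-HTP, while snR10 held 4.01% and snR42 2.76%. The control share is this small also because its sum of 8176 contains 8170 reads per 100000 on snR17A, a gene for the U3 snoRNA, which had 123 with Rbp95-HTP. U3 has the near-identical gene snR17B, listed at 41 with Rbp95-HTP and at 0 in the control, and the split of the reads between the copies is uncertain. Of the reads on H/ACA snoRNAs alone, which amounted to 1819 per 100000 with Rbp95-HTP, against 2 in untagged cells, the members held 48.4% in the Rbp95-HTP library. Of these H/ACA reads, snR37 alone held 37.1%, snR10 6.71% and snR42 4.62%.

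**Figure D1:**
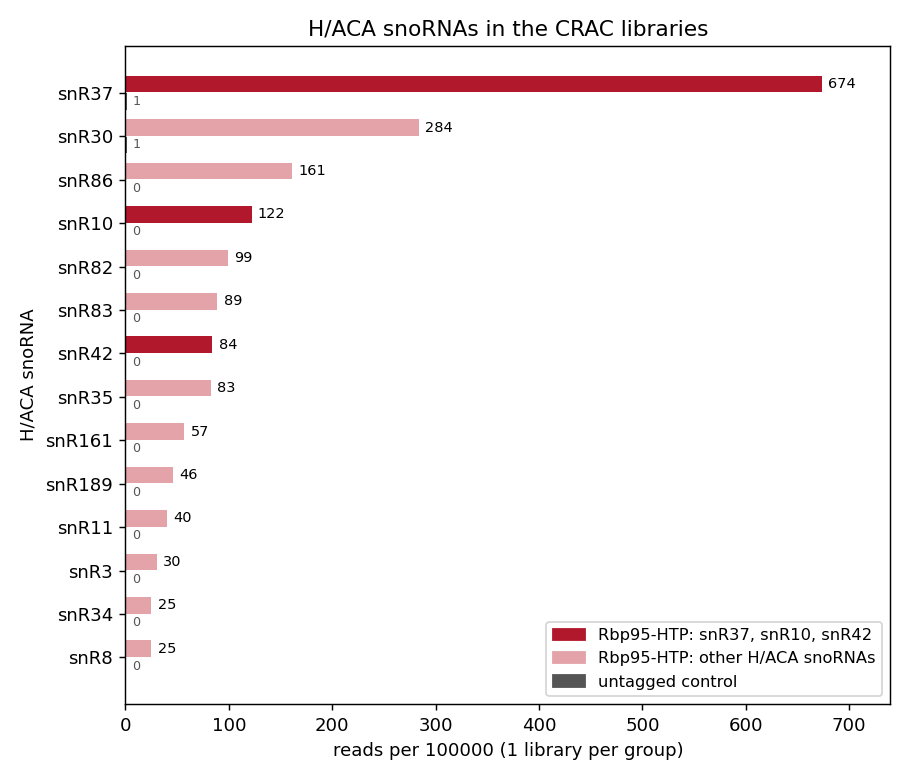
Reads per 100000 (horizontal axis) on the 14 listed H/ACA snoRNAs in the Rbp95-HTP library (upper bar of each pair, dark for snR37, snR10 and snR42) and in the untagged control (lower bar, gray), with 1 library per group and no error bars. The bar of snR37 reaches 674 and that of the next snoRNA, snR30, 284, whereas snR10 at 122 and snR42 at 84 lie within the range of the other H/ACA snoRNAs, and no control bar exceeds 1.

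The members differed strongly among themselves. In the Rbp95-HTP library snR37 was 5.52 times as high as snR10 and 8.02 times as high as snR42, and snR10 was 1.45 times as high as snR42. SNR37 is 386 nucleotides long, SNR42 351 and SNR10 245, so the order was also examined per gene length. On this scale snR37 had 174.6 reads per 100000 and 100 nucleotides, snR10 had 49.8 and snR42 had 23.9. The order of the members was the same on both scales, with snR37 at 3.51 times snR10 and 7.30 times snR42. CRAC reads cover only the contacted parts of an RNA, whereas the scale spreads them over the whole gene.

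Among all 36 RNAs, snR37 held rank 1 by reads and also per length. SNR10 held rank 7 by reads, between snR17A with 123 and the C/D box snoRNA snR75 with 113 reads per 100000. SNR42 held rank 11, between snR83 with 89 and snR35 with 83, both of which guide pseudouridines in the 18S rRNA. The steps from snR10 to snR17A and from snR42 to snR35 were 1 read per 100000 each, and without replicates there is no error to set such steps against. Per length, snR10 held rank 10 and snR42 rank 24, the largest shift in rank of the 3. The snoRNA snR190, which also pairs with domain V but belongs to the C/D box class, stood at 193 reads per 100000 in the Rbp95-HTP library, against 2 in the control.

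The other 11 listed H/ACA snoRNAs had 25 to 284 reads per 100000 with Rbp95-HTP, with a median of 57, and 10 of them were listed at 0 in the control. The highest was snR30, which acts in pre-rRNA processing rather than modification and had 284 with Rbp95-HTP, against 1 in untagged cells, and the lowest were snR34 and snR8 with 25 each and 0 in the control. Compared with snR30, snR37 was 2.37 times as high. The values of snR10 and snR42 lay above the median of the other H/ACA snoRNAs and inside their range. Per 100 nucleotides the other H/ACA snoRNAs reached 12.3 to 46.9 with a median of 24.3, so that snR37 and snR10 stood above all of them and snR42 slightly below their median. The median over all listed RNAs was 54.5 reads per 100000.

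Of the 29 H/ACA snoRNAs looked up, 14 were grouped here as guides of domain V, including snR37, snR10 and snR42. This grouping was made from general knowledge and was not checked against a list of targets. It may include guides of neighboring domains of the 25S rRNA, so the numbers below describe the group and not domain V itself. Of these 14, 9 had reads and the other 5 were not in the list. The 6 listed snoRNAs of this group other than snR37, snR10 and snR42 had 25 to 161 reads per 100000 with a median of 43. The highest of these 6 was snR86, whose value of 161 exceeded those of snR10 and snR42. Whether the site of snR86 lies in domain V was not checked. Of the 7 H/ACA snoRNAs grouped under other sites in the 25S rRNA 1 was listed. Of the 7 grouped as mainly guiding sites in the 18S rRNA 3 were listed, with 57 to 89 reads per 100000. Whether these shares differ beyond the sampling of the lists was not tested.

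The 35S pileups showed whether reads of the rRNA itself covered the nucleotides that these snoRNAs modify. The pileups are limited to 100000 reads per library, and the sum of their upward steps, a lower bound of the number of reads, was 97296 reads for Rbp95-HTP and 99994 for the control. The control reads were concentrated on few positions, with 16023 net starts at nucleotide 2519 of the 25S rRNA alone. In the control, 76.3% of the 25S nucleotides had no hit, and the median was 0 hits. A control value of 0 was therefore the usual case and not particular to the guided sites. U2944, guided by snR37, had 941 hits with Rbp95-HTP, against 0 in untagged cells. These hits corresponded to 0.967% of the 35S reads of the Rbp95-HTP library (95% Wilson interval 0.908 to 1.03%), while 0 of 99994 control reads allows a share of up to 0.0030% (3 reads). U2923, guided by snR10, had 44 hits with Rbp95-HTP, or 0.0452% of the 35S reads (0.0337 to 0.0607%), and 0 in the control. U2975, guided by snR42, had 0 hits with Rbp95-HTP, which allows a share of up to 0.0031%, and 1 in the control, or 0.0010% (0.000177 to 0.00567%). The order of hits at the guided nucleotides was thus the order of the snoRNA values, for 3 pairs of values from the same library. The hits at U2923 were below the 25S median of 74, and whether the hits and the snoRNA values are related was not tested. The intervals and limits count each read as a separate draw and cover counting error only, since reads without molecular identifiers may be copies of the same molecule.

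**Figure D2:**
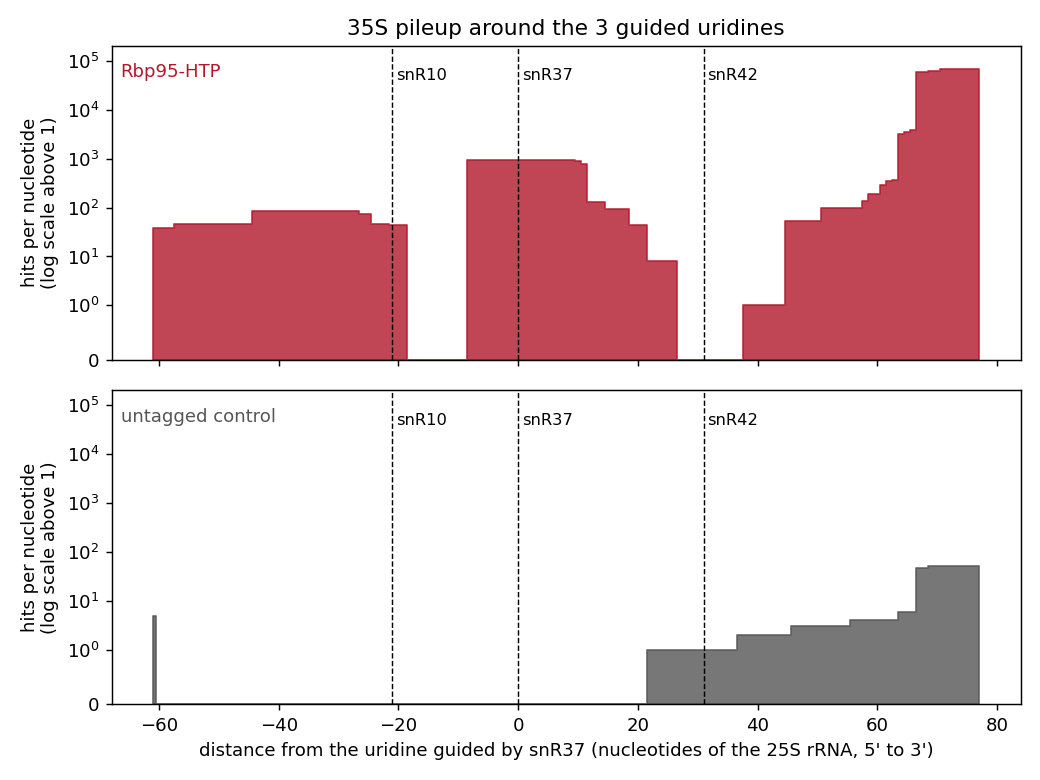
Hits per nucleotide (vertical axis, logarithmic above 1) in the 35S pileups of Rbp95-HTP (upper panel) and the untagged control (lower panel), against the distance from the uridine guided by snR37 along the 25S rRNA, with dashed lines at the 3 guided uridines. With Rbp95-HTP the line of snR37 crosses a separate block of 941 hits, that of snR10 the end of a block with 44 hits and that of snR42 a gap without hits, whereas the control has 0, 0 and 1 hits at these lines.

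The hits at the guided nucleotides were also set against the 3396 nucleotides of the 25S rRNA. In the Rbp95-HTP library, 153 of them, or 4.51%, had at least the 941 hits of U2944, as did 42 of the 869 T positions. The 44 hits of U2923 were below the median of 74 hits, and 57.9% of the 25S nucleotides had at least as many. U2975 belonged to the 33.0% of 25S nucleotides without a hit in the Rbp95-HTP library, against 76.3% in the control. With a limit of at least 10 hits with Rbp95-HTP and at least 10 times the hits of the control, 2 of the 3 guided nucleotides were called, compared with 58.8% of all 25S nucleotides. Of the 3, U2944 was thus the only well covered nucleotide. It reached 1.41% of the 66665 hits at nucleotide 3026, the top of the peak in helix H95, while U2923 reached 0.0660%.

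The reads over U2944 formed a block of their own. All 941 net starts of the block lay on nucleotide 2936, so that U2944 was the ninth nucleotide of these reads. Directly upstream, nucleotides 2926 to 2935 had no hits, and downstream the block ended at nucleotide 2970. The first 18 nucleotides, up to nucleotide 2953, carried all 941 hits, after which the hits decreased in steps. At nucleotide 2955, 662 of the reads ended, or 70.4%, which gives them a length of 20 nucleotides. A further 94 reads ended at nucleotide 2954 and 55 at nucleotide 2953. The other reads were longer, with 36 ending at nucleotide 2958, 50 at nucleotide 2962, 36 at nucleotide 2965 and 8 at nucleotide 2970. The mean length was 20.8 nucleotides, which was below the mean of 30.0 nucleotides over the 35S pileup of the Rbp95-HTP library. Starts and ends that fall on neighboring nucleotides cancel in a pileup, so these numbers are net values. In the control, at most 1 hit was found at any nucleotide of the block, at its last 5 nucleotides.

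**Figure D3:**
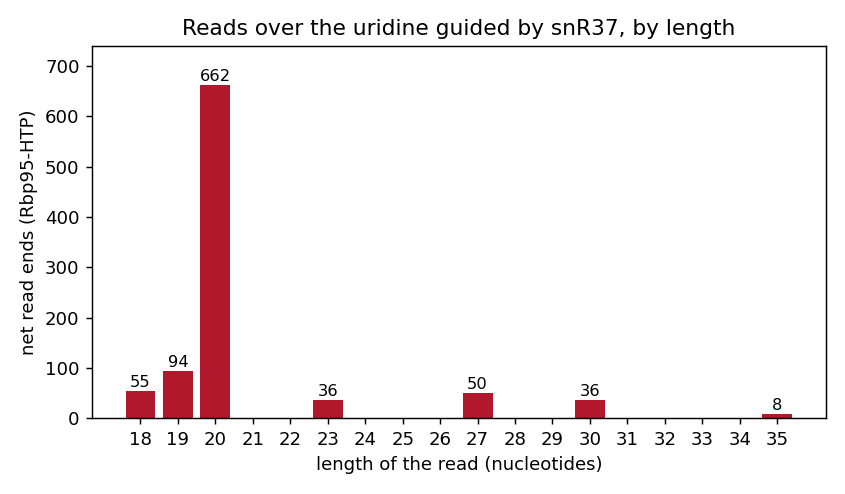
Net read ends (vertical axis) of the 941 reads of the Rbp95-HTP library that began at nucleotide 2936 of the 25S rRNA and covered the uridine guided by snR37, by read length in nucleotides (horizontal axis). The bar at 20 nucleotides holds 662 reads, and the longest reads, 8 in number, have 35 nucleotides.

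Among the 209 nucleotides of the 25S rRNA with net read starts in the Rbp95-HTP library, nucleotide 2936 held rank 9. Of the 8 larger starts, 5 lay within or directly upstream of the peak in helix H95. The remaining 3 were at nucleotides 2519, 2540 and 2547, with 3918, 1762 and 978 net starts with Rbp95-HTP, and at the first of them the control had 16023. Nucleotide 2936 had 0 net starts in the control. The block over the site of snR37 was therefore the largest start of 25S reads outside helix H95 and the region from nucleotide 2519 to 2547, a comparison made after the values were seen. Whether PCR duplicates contribute to this single start position was not tested.

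The coverage at the site of snR10 had another form. U2923 lay close to the 3′ end of a covered stretch, which had 38 hits at nucleotide 2886 from reads that began further upstream. In addition, 7 net starts were found at nucleotide 2887 and 40 at nucleotide 2900. Up to 85 hits were reached within 25 nucleotides upstream of U2923. Of these reads, 12 ended at nucleotide 2917, 28 at nucleotide 2919 and 1 at nucleotide 2922, directly before the guided uridine. The last 44 reads ended at nucleotide 2925, only 2 nucleotides downstream of U2923. From there to the start of the block over U2944, 10 nucleotides were without hits, so the reads at the sites of snR10 and snR37 did not overlap.

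The site of snR42 lay in a gap. With Rbp95-HTP, the pileup stayed at 0 from nucleotide 2971 to 2981, a length of 11 nucleotides that includes U2975. The gap separated the block of snR37 from the reads leading to helix H95. The next read began at nucleotide 2982, followed by 52 net starts at nucleotide 2989 and 47 at nucleotide 2995, so that 100 hits were reached 20 nucleotides downstream of U2975. The main start of the peak in helix H95, with 54183 net starts, was at nucleotide 3011, 36 nucleotides downstream of U2975, and the peak reads therefore did not reach the site of snR42. In the control, the single hit at U2975 came from a stretch that began at nucleotide 2966, and no hits were found at U2923 or U2944 and between them.

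Averages over wider windows differed according to these blocks. Over 10 nucleotides on either side, the mean with Rbp95-HTP was 848.8 hits around U2944, 39.9 around U2923 and 4.19 around U2975, while the means of the untagged cells were 0, 0 and 1.19 hits. Over 25 nucleotides on either side, the Rbp95-HTP means were 389.9, 279.7 and 143.2 hits for the sites of snR37, snR10 and snR42, while those of the untagged cells were 0.0784, 0 and 1.31. The wider windows of snR10 and snR42 contain part of the block over U2944, so their values are not separate measurements. The window of 10 nucleotides around U2975 also contains the end of this block. It had 44 hits at nucleotide 2965 and 8 at nucleotide 2970, against at most 1 at the nucleotides after the block. The mean of 4.19 is therefore not a measure of the site of snR42.

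Substitutions and deletions in CRAC reads can mark a crosslinked nucleotide, and few were found at the guided nucleotides. At U2944, 2 of 941 hits had a substitution and none a deletion in the Rbp95-HTP library, which is an altered share of 0.213% (95% Wilson interval 0.0583 to 0.772%). Over the whole block of snR37, 30 of 19554 hits were altered, or 0.153%, and none by a deletion. The most altered nucleotide within 25 nucleotides of U2944 was T2953, with 6 altered hits of 941 or 0.638% (0.293 to 1.38%). Over the whole 35S pileup, 0.938% of the hits were altered in the Rbp95-HTP library, against 0.282% in untagged cells, but C3034 in helix H95 alone accounted for 58.2% of the altered hits of the Rbp95-HTP library. With C3034 left out this share was 0.400%, and outside the peak it was 0.566%. The median over the other 36 nucleotides of the peak (at 10% of its height) was 0.263%. The shares of 0.400%, 0.566% and 0.263% lie within the interval of U2944, which rests on 2 altered hits and is wide. The share of 0.938% over the whole pileup lies above this interval. The share of 0.153% over the whole block of snR37 was below all of these shares. At U2923, 0 of 44 hits were altered, and with so few hits a share of up to 6.82% (3 reads) is allowed. At U2975 no share can be given for the Rbp95-HTP library, and the single control hit was not altered. Pseudouridine itself is read as a normal base by reverse transcriptase, so these shares do not measure the modification.

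The positions of altered nucleotides within the snoRNAs can only be described from the supplementary list of the study, since no pileups of the snoRNAs were used here. For all 3 members altered nucleotides are listed. For snR37 several are listed and all of them lie close to the 3′ end of the RNA, in the part that contains the ACA box and its surroundings. For snR42 the only listed nucleotide is likewise close to the 3′ end. For snR10 they lie in the 5′ as well as the 3′ part of the RNA and not next to its 3′ end. The list gives no number of altered reads, and so the strength of these positions could not be compared with the altered shares on the rRNA.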

How the data were processed

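Per the labels, CRAC libraries of Rbp95-HTP and untagged cells were amplified by PCR with 16 cycles. The authors cleaned reads with Flexbar, aligned them with Novoalign and counted them with pyCRAC. The submitters' processing notes name the R64 build, and versions are not given in the sources used here. The deposited snoRNA lists and class tables hold a score, the number of reads out of 100000 or of sequences out of 1000000, and it is not stated whether it was scaled. It was not treated as counts, and the class tables, in which the snoRNA class held 2.95% for Rbp95-HTP, against 7.96% for the control, were not used further. The deposited 35S pileups hold counts of hits, substitutions and deletions per nucleotide, in pileups limited to 100000 reads.

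The members and lists were chosen with earlier results of these data known. The class and target of H/ACA snoRNAs were assigned from general knowledge, and the target domains were not checked against a list of sites. Gene lengths and positions were taken from the R64 gene table, in which all 36 listed RNAs were found. The guided nucleotides were placed in the 35S sequence by adding 3251 to the 25S number, which is the distance of RDN25-1 from the start of RDN37-1 in that table. Net read starts and ends are the upward and downward steps of the hits. The peak in helix H95 is the stretch with at least 50% of the highest value. Intervals are 95% Wilson intervals. Where 0 was observed, the limit given is instead 3 reads divided by the number of reads or hits. This limit is somewhat lower than the upper end of the Wilson interval, which for the altered share at U2923 is 8.03%. Named RNAs were the members, their neighbors in rank, the highest and lowest other H/ACA snoRNAs, snR17A, snR17B, NME1 and snR190; snR86 was added after its value was seen. NME1, the RNA of RNase MRP, stood at 16 reads per 100000 in the Rbp95-HTP library, against 0 in untagged cells. Python 3.11.15, numpy 2.4.6 and matplotlib 3.10.9 were used, and the step and peak functions were tested on simulated data. Alternatives concerned the RNAs ranked, the scale, the window and denominator of the hits and the kind of alteration.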

Additional observations from a re-analysis of the deposited data

How the results depend on the processing

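Of 31 alternatives, 11 left the value unchanged within its counting interval or its rounding. The rank of snR37 was 1 in every alternative tried. SNR10, at rank 7, moved to 6 with the control subtracted or without the U3 genes and NME1, to 10 per gene length and to 4 among H/ACA snoRNAs. SNR42, at rank 11, moved to 10, 10, 24 and 7 in the same alternatives. The share of the snoRNA reads on the 3 members, 28.9% as deposited, was 30.7% without the U3 genes and NME1, 30.1% with the control subtracted, 48.4% of H/ACA reads and 16.6% per gene length. The hits at U2944 were 0.0322% of all 35S hits, and the mean over 10 and 25 nucleotides on each side was 0.0290% and 0.0133%. The corresponding value at U2923 was 0.0015%, with a mean of 0.00957% over 25 nucleotides, and at U2975 0%, with means of 0.000143% and 0.0049%. The windows behind these 3 means contain part of the block over U2944. Relative to the 35S hits outside the highest peak, U2944 had 0.0972% and U2923 0.00455%. With deletions alone the altered share at U2944 was 0%. No altered share was computed at U2975, which had no hits. No paired analysis was possible because each group has 1 library. Copies made by PCR are not separated in the pileups, and the depth of the snoRNA lists is unknown.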
